A study of Mus musculus with 16 samples.

Results

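Molecular chaperones of the heat shock families in the cytosol and the endoplasmic reticulum (ER) were described through 10 genes in mouse brain: Hspa8, Hspa4, Hspa5 and Hspa1a of the HSP70 system, Hsp90aa1, Hsp90ab1 and Hsp90b1 of the HSP90 family, the J-domain cochaperones Dnajb1 and Dnajb5, and the small heat shock protein Hspb1. They were picked by name as a set of related genes, with earlier results of these data known, and are 10 of 23698 genes with reads. The 10 genes had reads in the data, from 50 reads for Hspa1a to 113724 for Hspa8 over all samples.

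Long-read RNA sequencing (PacBio Iso-seq) was performed on brain tissue of male mice aged 3 months, in which each read follows 1 full-length cDNA molecule and shows which exons were joined in it. R6/2 mice, a model of Huntington's disease on a mixed B6CBA background, carry a transgene with exon 1 of human HTT bearing an expanded repeat, and the non-transgenic (NT) mice do not. Cortex and striatum were sampled from each genotype, with 4 samples in each of the 4 groups and 16 in all. The transgene is a human sequence and was not analysed here, so the genotype labels were not checked against it, and tissue was taken whole, so that fewer cells of a type and less RNA per cell cannot be told apart.

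The files held 252885 to 808814 reads per cortical sample and 317050 to 1496196 per striatal sample. The 10 chaperone genes took 1.09% to 2.94% of cortical and 0.627% to 2.18% of striatal gene reads. Counts came in 2 sets, taken here as 2 sequencing runs and summed, for NT 1, NT 2, R6/2 2 and R6/2 3 of the striatum, and the mean length of the isoforms read was 2125 to 2197 nt in these 4 samples against 1589 to 2068 nt in the other 12. Levels are given as CPM, the reads of a gene per 1000000 reads of the normalized library. Of 9 marker genes of striatal projection neurons, all had reads, and their summed level was 10090 to 13840 CPM in the striatum of NT mice, 1886 to 3269 in the striatum of R6/2 mice, 375 to 469 in the cortex of NT mice and 95.5 to 130 in the cortex of R6/2 mice. Markers of cortical excitatory neurons summed to 119 to 186 CPM in the cortex and 0 to 49.3 in the striatum, so both tissues carried the markers of their labels. Markers of oligodendrocytes summed to 3365 to 6938 in the cortex and 12440 to 29520 in the striatum, and those of the choroid plexus ranged from 6.49 to 9179, with the highest value in striatal sample NT 3. The part of cell composition in the values below was not tested.

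HSP70 proteins bind exposed hydrophobic stretches of client proteins and release them in a cycle driven by ATP. J-domain proteins such as those encoded by Dnajb1 and Dnajb5 deliver clients and stimulate ATP hydrolysis, and HSP110 proteins, the family of Hspa4, exchange the nucleotide. HSP90 dimers act later in folding, on kinases and steroid receptors among others, while small heat shock proteins such as that of Hspb1 hold unfolded proteins without ATP. Hspa5 and Hsp90b1 encode the HSP70 and HSP90 of the ER (BiP and GRP94). This machinery is studied in Huntington's disease because it acts on misfolded and aggregating proteins.

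Hspa8 (ENSMUSG00000015656, chr9:40800984-40810087, plus strand, mm10) encodes HSC70, the constitutive HSP70 of the cytosol, and it shares nearly all of its coding sequence with a near-copy that also had reads. Gm15459 (ENSMUSG00000100801, chr5:5781615-5783555, minus strand), annotated as a processed pseudogene, had 66797 reads. Its 1941 bases aligned without a gap to positions 371 to 2311 of the 2394-nt Hspa8 transcript ENSMUST00000015800, whose coding part runs from 371 to 2308, and 1936 of the 1941 were identical. The 5 differences, with the Hspa8 base first and positions counted from the 5′ end of the Hspa8 transcript, were G484A, C784T, C919T, G1592A and C1810T. The pair of stretches around G484A and C919T is shown because the assignment of a read to either gene over the aligned part rests on such single bases, which are in capitals. Sequences are from GENCODE M21 (mm10), 5′ to 3′ on the strand of each gene, and the Hspa8 stretches lie in coding exon 2 (chr9:40802022-40802050) and exon 4 (chr9:40802862-40802890), while those of Gm15459 lie at chr5:5783428-5783456 and chr5:5782993-5783021.
Hspa8 exon 2: ggtaaccgcaccacGccaagctatgttgc
Gm15459: ggtaaccgcaccacAccaagctatgttgc
Hspa8 exon 4: gctgctattgcttaCggcttagataagaa
Gm15459: gctgctattgcttaTggcttagataagaa

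The split of reads between Hspa8 and Gm15459 was extreme in 4 samples, those numbered NT 2 and R6/2 2 in either region. In the samples numbered NT 2, Gm15459 held 5 of 9177 reads of the pair in the cortex (0.0545%, 95% Wilson interval 0.0233% to 0.127%) and 12 of 20713 in the striatum (0.0579%, 0.0331% to 0.101%). In those numbered R6/2 2 it held 11597 of 11826 in the cortex (98.1%, 97.8% to 98.3%) and 22441 of 22808 in the striatum (98.4%, 98.2% to 98.5%). Both samples of each of these numbers thus stood apart in the same direction in the 2 regions, and the labels do not say whether cortex and striatum of a number came from the same mouse. In the other 12 samples the share of Gm15459 lay between 20.6% and 32.6%. Intervals cover counting error only, since reads were amplified and not counted by molecular identifiers. What sets the split was not tested.

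**Figure D1:**
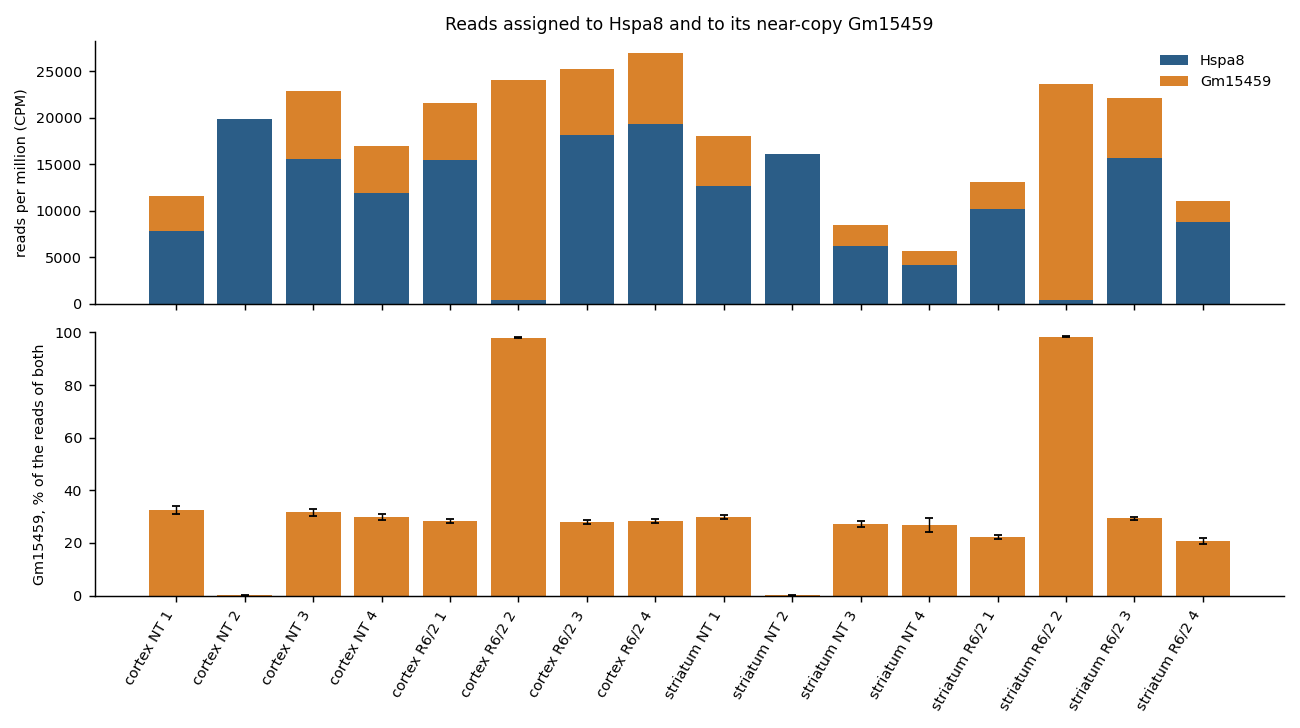
Reads assigned to Hspa8 and to its near-copy Gm15459 in the 16 samples: stacked CPM (top) and the share of Gm15459 in the reads of both, in percent with 95% Wilson intervals (bottom). The share is near 0 in both samples numbered NT 2, 98.1% and 98.4% in those numbered R6/2 2, and 20.6% to 32.6% elsewhere, while the stacked total of R6/2 2 is close to that of R6/2 3 in each region.

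Counted alone, Hspa8 had 7823, 19829.5, 15615 and 11911 CPM in the cortex of NT mice 1 to 4 and 15462, 465, 18140 and 19286 CPM in that of R6/2 mice. In the striatum it had 12664, 16076, 6204 and 4166 CPM in NT and 10186, 380.2, 15633 and 8785 CPM in R6/2 mice. The low value of each R6/2 group is the sample numbered R6/2 2, where 104 and 217 reads were of the full annotated transcript. That transcript held 92.9% to 97.9% of Hspa8 reads in the other 14 samples, and 45.4% and 59.1% in the cortical and striatal samples R6/2 2, where the 5-exon fragment TALONT000414049, a partial match to the 3′ exons, held 21.4% and 17.2%.

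With the reads of Gm15459 added, the cortex had 11599, 19840.3, 22855 and 16981 CPM in NT mice and 21541, 24022, 25191 and 26923 CPM in R6/2 mice. NT 3 alone lay within the R6/2 range. The striatum had 18085, 16085.5, 8517 and 5683 CPM in NT mice and 13095.5, 23628, 22149.8 and 11067 CPM in R6/2 mice. The samples of 2 runs were all above those of 1 run, and within each number of runs both R6/2 samples were above both NT samples. In edgeR's quasi-likelihood test with near-copies summed, Hspa8 differed between R6/2 and NT by 0.47 on the log2 scale (SE 0.161, Benjamini-Hochberg adjusted p = 0.124) in the cortex and by 0.58 (SE 0.165, adjusted p = 0.0672) in the striatum, neither past the threshold of 0.05. Counted alone, its log2 difference was -0.033 (SE 0.55) and 0.00068 (SE 0.641). The sum was set up after the split had been seen.

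Between regions, in the fit with a term for runs, the summed Hspa8 was lower in the striatum in both genotypes. Its log2 fold change was -1.24 (SE 0.197, edgeR adjusted p = 4.17e-05) in NT and -1.10 (SE 0.191, adjusted p = 1.71e-04) in R6/2 mice. Cortical samples all had 1 run, so the term for runs was set by striatal samples alone. With Gm15459 added, striatal samples of 1 run (8517 and 5683 CPM in NT, 13095.5 and 11067 in R6/2 mice) lay below all cortical ones of their genotype. Those of 2 runs (18085 and 16085.5 CPM in NT, 23628 and 22149.8 in R6/2 mice) lay within the cortical range of their genotype. Hspa8 alone gave -0.92 (SE 0.884, adjusted p = 0.448) and -0.86 (SE 0.778, adjusted p = 0.436), and did not pass. Without the samples numbered R6/2 2, Hspa8 alone gave -1.26 (adjusted p = 0.0012) and -1.04 (adjusted p = 0.00873).

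Of the other HSP70 genes, Hspa4 (chr11:53259814-53300457, minus strand) had the narrowest spread, with 142 ± 14 CPM (SD, n = 4) in the cortex of NT mice, 146 ± 6.3 in that of R6/2 mice, 123 ± 8.5 in the striatum of NT and 114 ± 21 in that of R6/2 mice. Hspa5 (chr2:34771970-34777547, plus strand) had 345, 584, 579 and 502 CPM in the cortex of NT mice and 590, 784, 658 and 650.4 CPM in that of R6/2 mice. These cortical groups did not overlap, with nearest values of 584 CPM in NT and 590 CPM in R6/2 mice. How many of all genes separate in this way was not counted, and the difference did not pass (edgeR adjusted p = 0.272). In the striatum, Hspa5 had 596, 525, 421 and 257 CPM in NT mice and 640.3, 772, 807 and 500.2 CPM in R6/2 mice, and the groups overlapped. Hspa1a (chr17:34969190-34972156, minus strand), the stress-induced HSP70, had 0 to 8 reads per sample and 50 in all, with cortical levels of 9.3 ± 6.5 CPM in NT and 5.1 ± 3.6 in R6/2 mice and striatal ones of 2.6 ± 2.1 and 4.2 ± 2.3. Hspa1b, its neighbour of 99.1% identity over the aligned part, had 0 reads. At this depth, differences of Hspa1a between groups were not detectable and it did not enter any test.

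**Figure D2:**
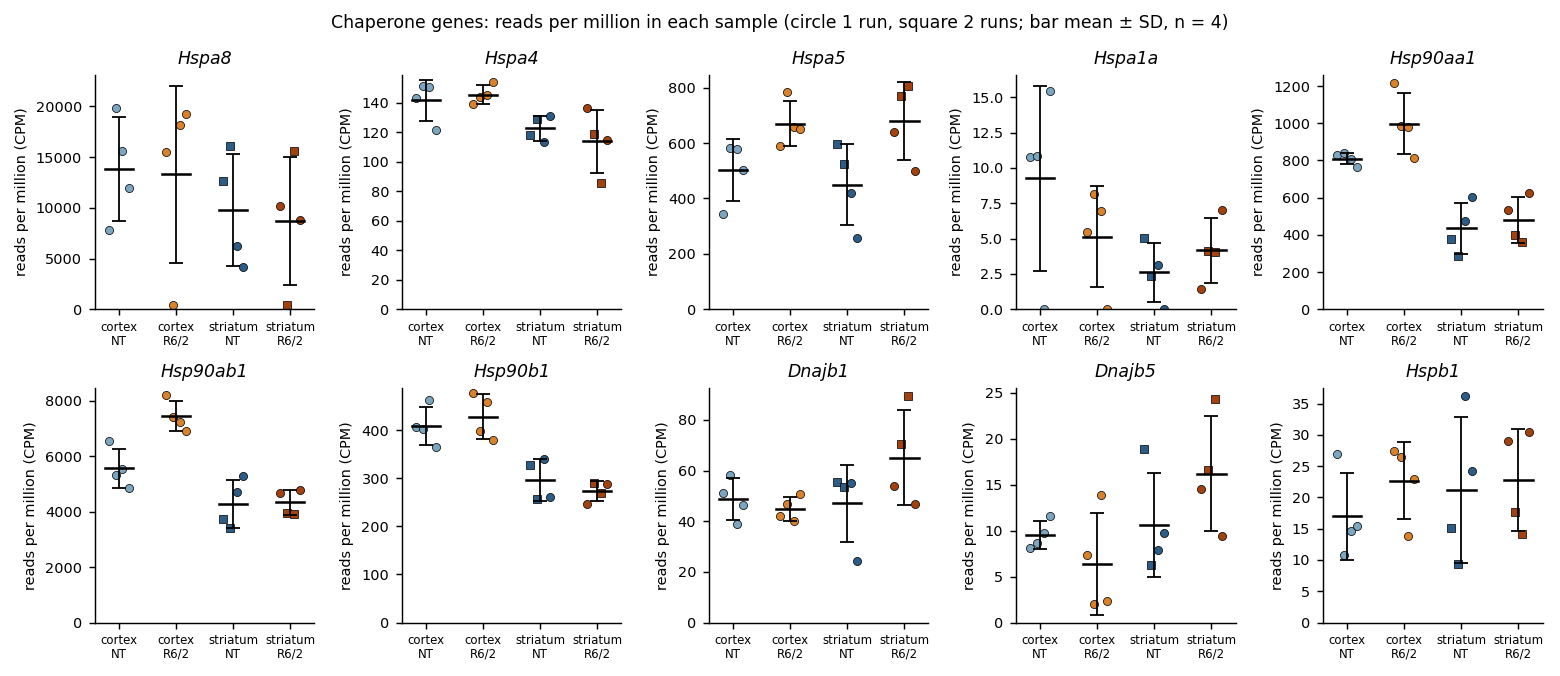
Level of each of the 10 chaperone genes in CPM (vertical axes, linear, from 0) by region and genotype; each point is a sample (circle 1 run, square 2 runs) and bars are the mean ± SD (n = 4). Hsp90ab1 in the cortex is 4873 to 6552 CPM in NT and 6932 to 8232 CPM in R6/2 samples, and the lowest Hspa8 point of each R6/2 group is sample R6/2 2.

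The HSP90 family was read mostly as partial matches to its annotated transcripts, called truncated here. The word refers to missing junctions and not to length, and how such molecules arose was not tested. TALON, the tool that assigned reads to isoforms, calls a read an incomplete splice match (ISM) when it holds only part of the junctions of an annotated transcript. ISM isoforms made up 15.9% of the reads of all genes, against 91.6% for Hsp90aa1, 83.6% for Hsp90ab1 and 81.2% for Hsp90b1, and 72.5% for Hspa4. In the other members the share was 23.5% for Dnajb5, 17.6% for Hspa5, 10.7% for Dnajb1 and 2.34% for Hspa8, and all reads of Hspa1a and Hspb1 were of known isoforms.

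The leading truncated isoforms of the 3 HSP90 genes held their first 5 to 7 exons. Hsp90ab1 (chr17:45567775-45573271, minus strand), the constitutive cytosolic HSP90, had 35574 of its 49352 reads in TALONT000484777, a 6-exon isoform of 1062 nt, which is the summed length of exons 1 to 6 of the 11-exon, 2520-nt transcript ENSMUST00000024739. The latter had 7862 reads. Hsp90aa1 (chr12:110690605-110702728, minus strand), the inducible cytosolic HSP90, had 2443 of 5937 reads in the 5-exon TALONT000569384 of 870 nt and 128 in its full 11-exon transcript ENSMUST00000094361. Hsp90b1 (chr10:86690209-86705509, minus strand) had 1632 of 3277 reads in the 7-exon TALONT000606994 and 491 in the 18-exon transcript ENSMUST00000020238. TALONT000606994 was 2613 nt long, against 1129 nt for the annotated exons 1 to 7, a surplus about as long as the 1483 nt of intron 7.

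In all 3 genes, the coding window of 20 nt with most A bases lay in the last exon of the leading truncated isoform. These windows are shown because reads were kept only with a poly(A) tail. The study's pipeline also computed the fraction of A in the 20 bases at read ends. That value is not carried by the counts used here. The 20-nt window is in capitals, with 5 bases on each side (GENCODE M21, mm10, on the strand of the gene). The stretches lie at chr17:45570398-45570427 in exon 6 of Hsp90ab1, chr12:110694255-110694284 in exon 5 of Hsp90aa1 and chr10:86698323-86698352 in exon 7 of Hsp90b1.
Hsp90ab1: aagacAAGAAAAAGAAAACAAAGAAgatca
Hsp90aa1: agaggAAGAGAAAGAAAAAGAAGAAaagga
Hsp90b1: ggaagAAGAAGAAAAGAAACCAAAAactaa

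The Hsp90ab1 window had 16 A in 20 bases, at positions 898 to 917 of the transcript, and its exon 6 ends at 1062. That of Hsp90aa1 had 15 A at 872 to 891, and that of Hsp90b1 15 A at 1101 to 1120, in an exon that ends at 1129. The start of the window minus the length of the leading truncated isoform differed widely between the genes. It was 2 nt for Hsp90aa1, -164 nt for Hsp90ab1 and -1512 nt for Hsp90b1. Of 52527 coding transcripts with a coding part of at least 300 nt, 5.10% had a window of at least 15 A and 1.42% one of at least 16. Hspa5 also had such a window (acaggAAACAAAAACAAAATCACAAttacc, chr2:34775700-34775729, 15 A), but in exon 9, beyond the 6 exons of its leading isoform of this kind, and the other 6 members had at most 13 A. A window is a description of the annotated sequence, and the counts give an isoform's length but not where it ends, so whether reads started at these windows was not tested.

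Complete reads of the HSP90 genes were more frequent in the striatum, above all in the samples of 2 runs. The 6-exon isoform held 78.9% to 86.6% of Hsp90ab1 reads in the cortical samples and 46.8% to 79.1% in the striatal ones. The full transcript held 2.51% to 7.31% in the cortex. In the striatum it held 9.16% and 4.58% in NT 3 and NT 4 and 18.9% and 15.4% in R6/2 1 and R6/2 4, which have 1 run, and 37.7%, 24.2%, 37.4% and 43.0% in NT 1, NT 2, R6/2 2 and R6/2 3, which have 2. The full transcript of Hsp90b1 held 0.662% to 8.47% in the cortex, 3.70% to 20.6% in striatal samples of 1 run and 15.96% to 36.5% in those of 2 runs. The samples of 2 runs also had the longest isoforms on average, as given above, and the part of read length in these shares was not tested.

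**Figure D3:**
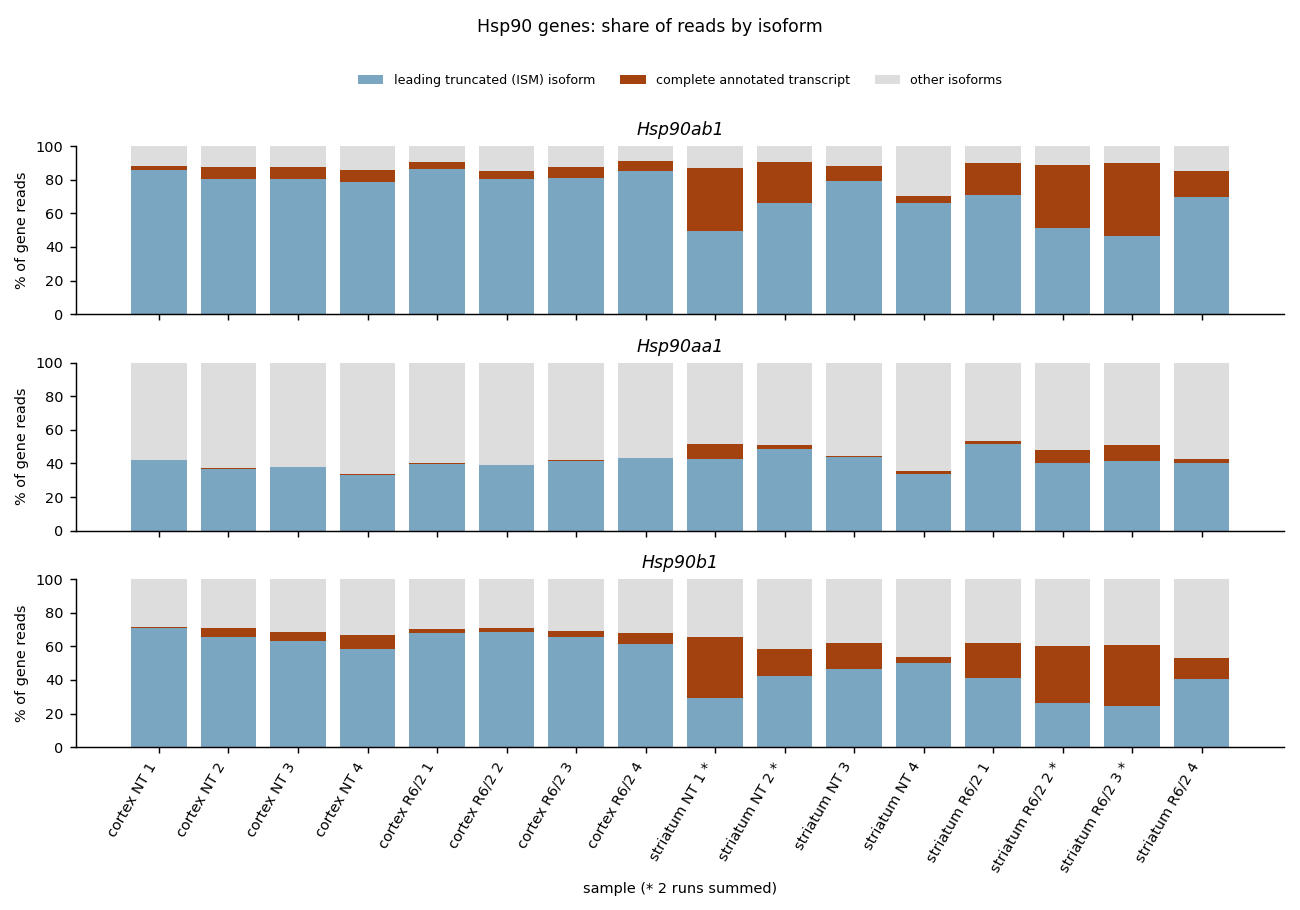
Share of the reads of Hsp90ab1, Hsp90aa1 and Hsp90b1, in percent (from 0 to 100), that belong to the leading truncated isoform, the complete annotated transcript and all other isoforms, in the 16 samples; an asterisk marks samples of 2 runs. The complete transcript of Hsp90ab1 holds at most 7.31% in the cortex and 24.2% to 43.0% in the striatal samples of 2 runs.

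R6/2 and NT mice were compared within each region to ask whether chaperone genes respond to the transgene. In the cortex, 0 of the 8 members tested passed (edgeR's quasi-likelihood test), against 3.23% of all genes tested, 2 had an unadjusted p under 0.05, and DESeq2 also called 0. In the striatum, 0 of 9 passed, against 4.32% of all genes, 1 had an unadjusted p under 0.05, and DESeq2 called 1. The median log2 fold change of the members tested was 0.21 in the cortex and 0.14 in the striatum, against 0.015 and -0.0015 over all genes tested. Dnajb5 was too low to be tested in the cortex and Hspa1a in either region.

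The members with an unadjusted p under 0.05 were Hsp90ab1 and Hspa5. Hsp90ab1 had 6552, 5325, 5526 and 4873 CPM in the cortex of NT mice and 8232, 7410.2, 7246 and 6932 CPM in that of R6/2 mice. The groups did not overlap, but how many of all genes separate in this way was not counted. In the cortex, 1055 of 6128 genes had an unadjusted p under 0.05 (edgeR). The log2 fold change of Hsp90ab1 was 0.44 (SE 0.162, edgeR adjusted p = 0.164), and 0.52 (adjusted p = 0.0450) without cortical sample NT 1, the highest of its group. In the striatum Hsp90ab1 had 3734, 3399.9, 4722 and 5296 CPM in NT and 4684, 3954, 3936 and 4783 CPM in R6/2 mice, with a log2 fold change of 0.021 (SE 0.152).

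Hspa5 had a log2 fold change of 0.43 (SE 0.201, edgeR adjusted p = 0.272) in the cortex and 0.60 (SE 0.182, adjusted p = 0.0908) in the striatum. Within striatal samples of 1 run it was 0.73 (adjusted p = 0.486) and within those of 2 runs 0.47 (adjusted p = 0.324). DESeq2 gave 0.61 (adjusted p = 0.0266) for the striatum and edgeR without a filter on low counts 0.63 (adjusted p = 0.0403), so the call for Hspa5 depended on the tool and filter. The other members had log2 fold changes in the cortex from -0.15 (Dnajb1) to 0.40 (Hspb1), and in the striatum from -0.13 (Hspa4 and Hsp90b1) to 0.73 (Dnajb5, SE 0.394, adjusted p = 0.359).

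The genotype effects of the 2 regions were compared by an interaction term over all 16 samples. In edgeR, 0 of the 8 members tested differed, against 0.0408% of all genes, with 0 at an unadjusted p under 0.05 and 0 by DESeq2. The log2 difference for Hsp90ab1, striatum minus cortex, was -0.39 (95% interval -0.81 to 0.034), for Dnajb1 0.57 (-0.066 to 1.21) and for Hspa5 0.19 (-0.38 to 0.76).

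**Figure D4:**
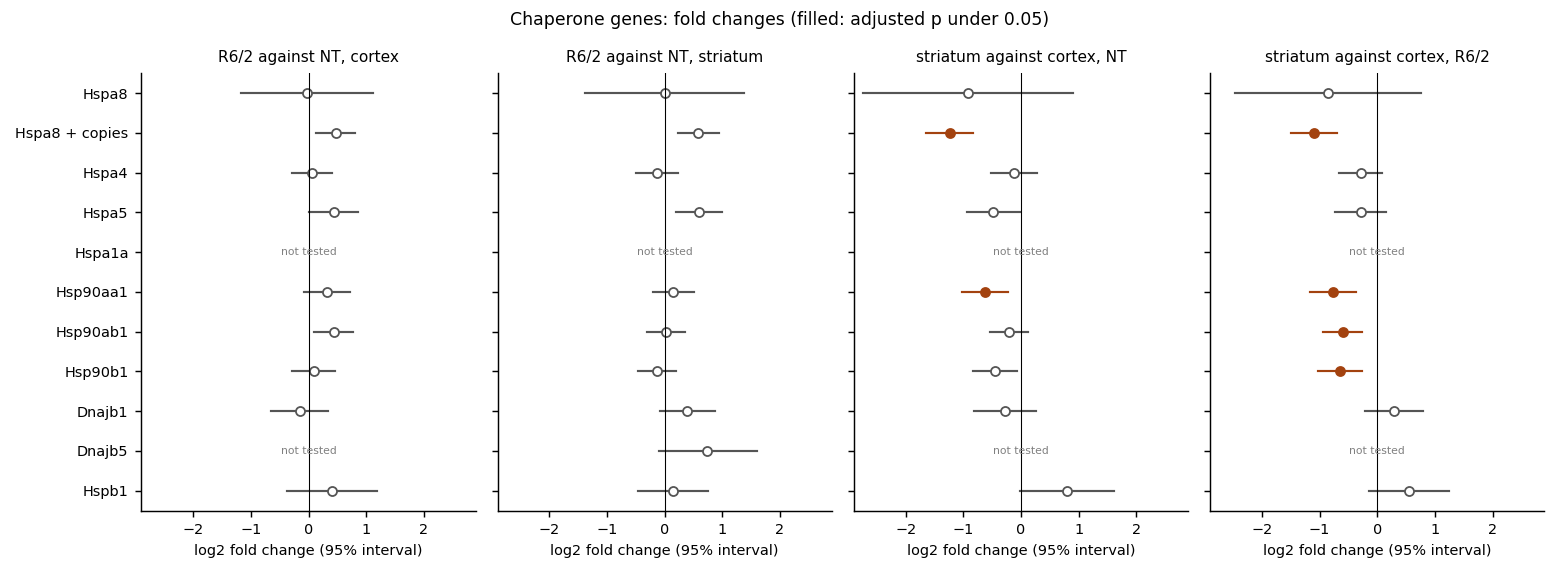
Log2 fold changes (horizontal axes) with 95% intervals of the chaperone genes, and of Hspa8 with its near-copies summed, in 4 comparisons; filled points have an edgeR adjusted p under 0.05. The points of R6/2 against NT are all open, and Hspa8 alone has a wider interval than its sum in every comparison.

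Striatum and cortex were compared within each genotype, with a term for runs that rests on striatal samples alone, since cortical samples had 1 run. In NT mice, 1 of 8 members tested, Hsp90aa1, was lower in the striatum (edgeR), against 33.6% of all genes tested that differed. In R6/2 mice, 3 of 8 were lower (Hsp90aa1, Hsp90ab1 and Hsp90b1), against 27.4% of all genes. The percentages of all genes count both directions. Of the 7360 genes tested, 1307 were lower in the striatum in NT and 1065 in R6/2 mice. The median over all genes was itself -0.12 and -0.097 on the log2 scale. Whether the members as a set differ from all genes in this was not tested.

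Hsp90aa1 had 828, 839, 808 and 766 CPM in the cortex and 377, 284, 476 and 601 CPM in the striatum of NT mice, and 1215, 985, 979 and 814 CPM in the cortex and 536, 397, 362 and 627 CPM in the striatum of R6/2 mice. The regions did not overlap in either genotype, but how many of all genes separate in this way was not counted. Its log2 fold change was -0.62 (SE 0.193, edgeR adjusted p = 0.0164) in NT and -0.76 (SE 0.192, adjusted p = 0.00495) in R6/2 mice. Hsp90ab1 changed by -0.60 (SE 0.164, adjusted p = 0.00882) and Hsp90b1 by -0.65 (SE 0.185, adjusted p = 0.0110) in R6/2 mice, and by -0.21 (SE 0.161) and -0.45 (SE 0.186, adjusted p = 0.0639) in NT mice. Within samples of 1 run, Hsp90aa1 gave -0.59 (adjusted p = 0.0652) in NT mice, and in R6/2 mice the 3 genes gave -0.77, -0.65 and -0.67, with adjusted p of 0.0223, 0.0236 and 0.0389. The call of Hsp90aa1 in NT mice was lost without cortical sample NT 1 (-0.39, adjusted p = 0.141), cortical NT 4 (-0.43, adjusted p = 0.142) or striatal NT 3 (-0.46, adjusted p = 0.146). In R6/2 mice, Hsp90aa1 passed without any single sample, though not without a filter on low counts (edgeR adjusted p = 0.0587). Hsp90ab1 was not called without cortical NT 4 (-0.39, adjusted p = 0.0905), striatal R6/2 1 (-0.55, adjusted p = 0.0508) or striatal R6/2 4 (-0.57, adjusted p = 0.0524), and Hsp90b1 was not called without cortical NT 1 (-0.44, adjusted p = 0.0619), cortical NT 4 (-0.44, adjusted p = 0.0878) or striatal R6/2 1 (-0.56, adjusted p = 0.0747). The NT samples can bear on the R6/2 values because all 16 samples were in 1 fit. That fit had scaling, filter, estimate of spread and term for runs in common, and the part of each was not tested. With the sample number as a block, Hsp90aa1 in NT mice (adjusted p = 0.0623) and Hsp90ab1 in R6/2 mice (adjusted p = 0.0694) were not called, and Hspa8 was called in both genotypes (-1.18 and -1.12).

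The direction for the HSP90 genes turned when ISM isoforms were left out. Counting only reads of known isoforms and of unannotated isoforms that are not partial matches, Hsp90aa1 was higher in the striatum, by 0.87 (edgeR adjusted p = 0.0432) in NT and 0.78 (adjusted p = 0.0505) in R6/2 mice. Hsp90ab1 was higher by 0.92 (adjusted p = 0.00985) and Hsp90b1 by 1.45 (adjusted p = 0.0129) in R6/2 mice. The direction of the regional difference in these genes thus depended on whether truncated reads were counted.

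Tests of isoform usage with ISM isoforms included, added after the data were seen, compared the truncated and complete isoforms themselves. Between striatum and cortex of NT mice, usage differed for Hsp90aa1 (edgeR diffSpliceDGE with Simes' method, adjusted p = 0.0129) and Hsp90ab1 (adjusted p = 0.0123), against 1.70% of all genes tested. In R6/2 mice it differed for Hsp90aa1 (adjusted p = 1.37e-06), Hsp90ab1 (adjusted p = 0.0124) and Hsp90b1 (adjusted p = 1.54e-04), against 2.05%. Relative to the gene as a whole, the complete transcript had log2 fold changes in R6/2 mice of 2.79 for Hsp90aa1, 1.54 for Hsp90ab1 and 2.35 for Hsp90b1. That of Hsp90aa1 had 3 reads in NT and 6 in R6/2 cortex, 0% to 0.451% of the gene's reads in the cortical samples. It reached the minimum of 10 reads only through the striatum, so its fold is a description. The p values of the gene are no independent support for that fold. The 2-exon, 303-nt isoform TALONT000569400 of Hsp90aa1 went the other way from the complete transcript. It held 17.6% to 30.5% of Hsp90aa1 reads in the cortical samples and 0.273% to 8.06% in the striatal ones, and its relative log2 fold change was -1.99 in NT and -2.75 in R6/2 mice. Hsp90aa1 also has near-copies: Gm12346 (chr11:77293444-77295898, 99.5% identical over 68.7% of the Hsp90aa1 transcript) had 15 to 56 reads per cortical and 0 to 7 per striatal sample. Summing Gm12346 and the 34 reads of Gm5844 into Hsp90aa1 gave -0.70 and -0.82 between regions.

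Isoform usage was next compared between genotypes. Over known isoforms and unannotated ones other than ISM, 0 of 2 members tested passed in the cortex (0.359% of all genes) and 0 of 7 in the striatum (0.450%), with 0 and 1 at an unadjusted p under 0.05 (edgeR diffSpliceDGE, Simes' method). An F test in place of Simes' method called 0 and 1. With ISM isoforms added, 1 of 7 passed in the cortex (0.153% of all genes) and 0 of 8 in the striatum (0.165%) by Simes' method, and the F test called 0 and 1. The single gene behind each of these calls was Hsp90b1.

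A pair of Hsp90b1 isoforms was read mostly in R6/2 mice. The 7-exon ISM isoform TALONT000607006 had 1, 1, 0 and 1 reads in the cortex of NT mice 1 to 4 and 17, 7, 16 and 14 in that of R6/2 mice. In the striatum it had 0, 0, 1 and 1 reads in NT and 5, 8, 11 and 3 in R6/2 mice. Every R6/2 sample had more reads than every NT sample of its region. Its length, 1204 nt, exceeds the 1129 nt of the annotated exons 1 to 7 by 75 nt.

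The second isoform, TALONT000606296, has 18 exons and at least 1 unannotated splice site (class NNC). At 2900 nt, it likewise exceeds the annotated 18-exon transcript of 2825 nt by 75 nt. It had 0 reads in all 4 cortical samples of NT mice and 0, 2, 2 and 0 in those of R6/2 mice. In the striatum it had 1, 1, 0 and 0 reads in NT mice and 3, 10, 11 and 5 in R6/2 mice. The counts carry no positions, so whether the 75 nt are the same in both isoforms, and where they lie, was not determined.

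Both isoforms together made up 0.432% ± 0.295 (SD, n = 4) of Hsp90b1 reads in the cortex of NT and 6.25% ± 1.68 in that of R6/2 mice. In the striatum they made up 0.750% ± 0.738 and 6.48% ± 1.46. The sum was formed after its values were seen and was not tested. All NT samples lay at or below 1.85% and all R6/2 samples at or above 4.59%. Over the same samples the level of Hsp90b1 as a whole was 409 ± 40 CPM in NT and 428 ± 47 in R6/2 cortex, and 297 ± 43 and 274 ± 20 in the striatum.

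With ISM isoforms, the test of Hsp90b1 usage gave an adjusted p of 0.0334 in the cortex with Simes' method and 0.245 with the F test (edgeR diffSpliceDGE). In the striatum it gave 0.0945 and 0.0252, and 0.224 with Simes' method and the sample number as a block, and without the term for runs or with first runs only it was near 1. Without ISM isoforms the striatal value was 0.125. Relative to the gene, the log2 fold change of the 7-exon isoform was 3.37 (cortex) and 3.41 (striatum), and that of the 18-exon isoform 3.62 (striatum). Both isoforms reached the minimum of 10 reads through the R6/2 samples alone and were named for the smallest p of their gene, so these folds are a description and the p values of the gene, which rest on them, are no independent support. When each cortical sample was left out in turn, the relative log2 fold change of the 7-exon isoform stayed between 3.16 and 3.50, but the gene's adjusted p lay between 0.0211 and 0.267, under the threshold without NT 1 and above it without each of the other 7 samples. In the striatum the same range was 2.78 to 4.31, with an adjusted p of 0.0433 to 0.531. Whether the effect differs between the regions was not tested.

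**Figure D5:**
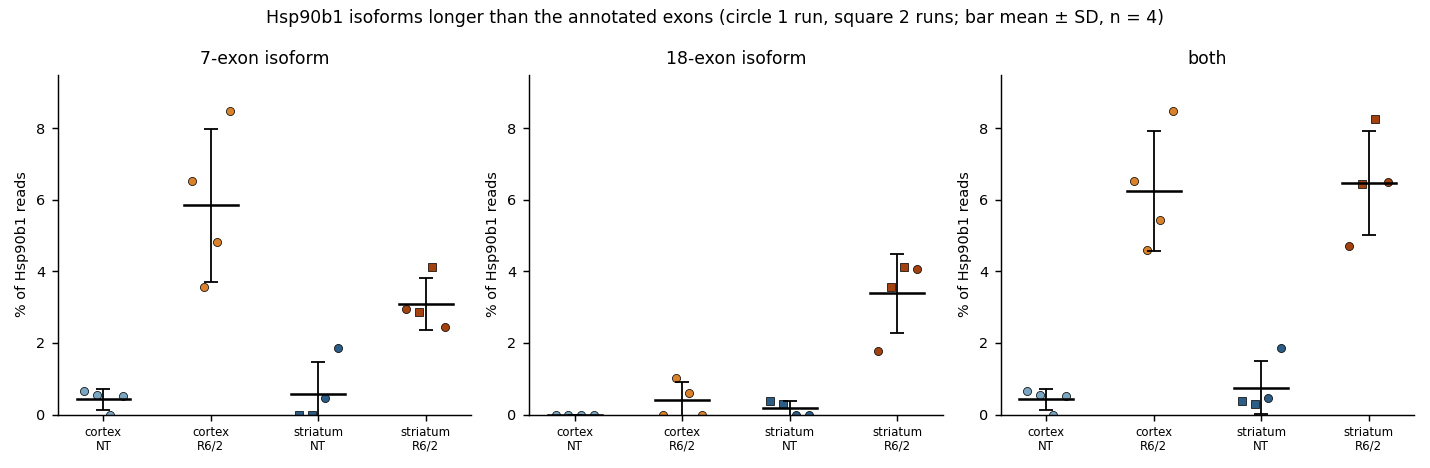
Share of Hsp90b1 reads, in percent, held by the 7-exon isoform TALONT000607006, the 18-exon isoform TALONT000606296 and both, by region and genotype; points are samples (circle 1 run, square 2 runs) and bars the mean ± SD (n = 4). For both together, NT samples lie at 0% to 1.85% and R6/2 samples at 4.59% to 8.48%.

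Hspa5 was read mainly as a pair of annotated isoforms, the 9-exon ENSMUST00000028222 of 3672 nt with 3313 reads and the 8-exon ENSMUST00000100171 of 2613 nt with 1478. The shorter one made up 40.5% ± 4.9 (SD, n = 4) of the pair in the cortex of NT mice, with a range of 34.3% to 45.8%, and 31.3% ± 2.5 in that of R6/2 mice, with a range of 28.9% to 33.5%. In the striatum it made up 30.2% ± 2.0 and 27.2% ± 0.93. The cortical ranges did not overlap, but how many isoform pairs of other genes separate in this way was not counted. Isoform usage of Hspa5 did not pass (edgeR diffSpliceDGE, adjusted p = 1 in both regions).

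The remaining members were low. Dnajb1 (chr8:83608193-83612653, plus strand), the main J-domain partner of stress-induced HSP70, had 541 reads, 83.4% of them of ENSMUST00000005620. Its level was 48.7 ± 8.2 CPM (SD, n = 4) in NT and 44.9 ± 4.7 in R6/2 cortex, and 47.1 ± 15.2 and 65.1 ± 18.9 in the striatum. Dnajb5 (chr4:42949814-42959425, plus strand) had 115 reads, of which ENSMUST00000098112 held 40.9% and the unannotated 5-exon TALONT000267844, with 21 reads, 18.3%. It had 1 to 10 reads in each cortical sample. Hspb1 (chr5:135887919-135889563, plus strand), which encodes the mouse HSP27 homologue, had 3 to 23 reads per sample, all of 1 known isoform, with 17.0 ± 7.0 and 22.7 ± 6.2 CPM in NT and R6/2 cortex and 21.2 ± 11.7 and 22.8 ± 8.1 in the striatum. Within each region the ranges of NT and R6/2 mice overlapped for Dnajb1, Dnajb5 and Hspb1.

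The rest of the chaperone network was described by 98 further genes in 8 lists, of which 97 had reads. Between R6/2 and NT cortex, 0 of 76 tested genes passed (edgeR), with 10 at an unadjusted p under 0.05 and a median log2 fold change of 0.080. In the striatum, 1 of 81 passed, with 10 at an unadjusted p under 0.05 and a median of 0.072. Both counts are below the shares of all genes called, 3.23% and 4.32%, and 1055 of 6128 and 1354 of 7694 genes had an unadjusted p under 0.05. The gene was Bag2, a cochaperone that inhibits the ubiquitin ligase CHIP. Bag2 had 13.9, 11.6, 4.72 and 4.85 CPM in NT mice 1 to 4 and 18.9, 35.2, 33.5 and 23.5 CPM in R6/2 mice, a log2 fold change of 1.57 (SE 0.286, edgeR adjusted p = 0.0070). All R6/2 samples were above all NT samples, on 22.5 and 7.5 reads on average. Bag2 was named because it passed, so this separation is a description and no further support.

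Subunits of the chaperonin TRiC, which folds actin and tubulin, had positive fold changes for 8 of 8 genes in both regions, and mitochondrial chaperones for 4 of 4, though 0 passed. Over all lists, 50 of 76 and 55 of 81 fold changes were positive in cortex and striatum, against 3174 of 6128 and 3835 of 7694 over all genes. The TRiC subunits were singled out after their values were seen. The TRiC median was 0.16 (cortex) and 0.29 (striatum), and 1 and 2 of them had an unadjusted p under 0.05. The 7 other lists had the following medians in cortex and striatum. Other HSP70 and HSP110 chaperones had 0.00038 and 0.18 over 6 and 7 genes tested, J-domain cochaperones 0.021 and 0.030 over 20 and 20, and cochaperones of HSP70 and HSP90 0.081 and 0.067 over 21 and 22. Small heat shock proteins had -0.13 and -0.32 over 2 and 2 genes, mitochondrial chaperones 0.088 and 0.072 over 4 and 4, genes of ER folding and the unfolded protein response 0.22 and 0.0093 over 17 and 20, and heat shock factors 0.45 and -0.0033 over 1 and 2. With the exception of Bag2, 0 genes of these lists passed.

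Between regions, 28 of 80 genes of the lists were lower and 7 higher in the striatum of NT mice, with a median log2 fold change of -0.47, and 24 were lower and 4 higher in R6/2 mice, with a median of -0.43. Over all 7360 genes tested, 1307 were lower and 1163 higher in NT and 1065 and 955 in R6/2 mice. For TRiC subunits, 5 of 8 were lower in NT and 6 of 8 in R6/2 mice, and 0 were higher. Among other HSP70 and HSP110 chaperones 5 of 7 and 2 of 7 were lower, and among cochaperones of HSP70 and HSP90 10 of 22 and 9 of 22 were lower and 1 and 1 higher. J-domain cochaperones had 3 of 20 and 1 of 20 lower and 1 and 0 higher, and ER folding genes 5 of 19 and 7 of 19 lower and 1 and 0 higher. Of mitochondrial chaperones, 1 of 4 was higher in either genotype and 1 and 0 lower. Of small heat shock proteins 1 of 2 was higher in either genotype, and of heat shock factors 2 of 2 and 1 of 2. These counts stand beside a difference in oligodendrocyte and neuron markers between the regions, given above, whose part was not tested.

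Genes whose level followed a member most closely over the 16 samples, after removal of the mean of each region and number of runs, are given as a description. For Hspa8 counted alone they were Thumpd1 (Pearson's r = 0.84), Gm12033 (0.79) and Ppp2r5b (0.74). Counted alone, Hspa8 had 465 (cortex) and 380 CPM (striatum) in the samples numbered R6/2 2, where Gm15459 held 98.1% and 98.4% of the pair's reads. Whether these genes followed the level of Hspa8 or the split of reads was not tested. Hsp90ab1 was followed by Rpl22 (0.90), Shfm1 (0.89) and Bex4 (0.89), and Hspa5 by Gprasp1 (0.92) and Stx12 (0.91), among others. They were picked from the highest values over 4756 genes, and the samples share library depth and read length.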

How the data were processed

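RNA was extracted with TRIzol from cortex and striatum, treated with Terminator exonuclease and converted to cDNA with 27 cycles of amplification before PacBio sequencing. The authors made consensus reads, kept those with a poly(A) tail of at least 20 nt, mapped them to mm10 with minimap2 (2.17-r941, per the submitters' processing notes), corrected them (TranscriptClean) and used TALON 5.0 with Ensembl 87 annotations to sort them into isoforms. TALON was set to tolerate 500 nt at the 5′ and 300 nt at the 3′ end. The values the authors deposited are counts: unnormalized numbers of reads per isoform, before TALON's transcript filter, in 20 files for 16 samples. For 4 striatal samples the labels speak of 2 replicates in the raw data. Their 2 sets of counts were taken as 2 runs of 1 sample and summed.

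Gene counts were sums over known, ISM (incomplete splice match), NIC (new combination of annotated splice sites) and NNC (unannotated splice site) isoforms. Reads of the genomic, antisense and intergenic classes were left out. Genes were tested by edgeR's quasi-likelihood test (version 4.0.16 under R 4.3.3, with TMM scaling and filterByExpr), with p values adjusted over all genes tested by the Benjamini-Hochberg method and a threshold of 0.05, within each region for genotypes and over all 16 samples for regions and the interaction. Fits with striatal samples had a term for the number of runs. Changes in isoform usage came from diffSpliceDGE of edgeR on isoforms with at least 10 reads, in genes with at least 2. CPM were computed from the TMM-normalized libraries and not divided by length, since each read follows a whole cDNA. DESeq2 1.42.0, upper-quartile scaling, other filters and read classes, first runs only, samples of 1 run or 2 runs, sample numbers as a block, and fits without each sample in turn were alternatives. Scripts were tested on simulated data. Near-copies were found with blastn 2.17.0+ (at least 90% identity over at least 50% of the transcript) among GENCODE M21 transcripts, whose build is that of the files. Python 3.11.15 was used for other steps.

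The members, the lists and the tests were chosen with earlier results of these data known. The summing of near-copies, the fits without samples numbered R6/2 2 and the isoform tests between regions were added after seeing the data. Named are the 10 members, Hspa1b and, from the lists, up to 5 genes per direction and region with an adjusted p under 0.05 and a mean of at least 20 reads in the genotype where they are higher. Isoforms named have the most reads of their gene, at least 5% of its complete reads in a group or its smallest p. For likeness, the 3 genes with the highest correlation of log2 CPM (prior count 2) to Hspa8, Hsp90ab1 and Hspa5 were taken, and 1 of them is not reported here. Other genes were named after their values were seen. The labels do not say whether samples are separate mice, so p values measure the spread between these samples. Sample numbers were not used as pairs, because the labels do not tie them and not every pair deviated together. Correlations were -0.381 to 0.173 between genotypes and -0.0898 to 0.270 between regions, with 5 of 8 of the latter over 0.1.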

Additional observations from a re-analysis of the deposited data

Results flagged for a closer look

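Of 96 groups of 4 samples examined (levels and isoform shares of the chaperone genes), 7 had a highest or lowest sample whose gap to the nearest other, divided by the group's range, exceeded Dixon's critical value for 4 samples. By chance this happens in about 1 group in 20.

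Of the 7, 4 are the share of Gm15459 in the reads of Hspa8 and Gm15459. It was 0.0545% in cortical sample NT 2 (others 29.9% to 32.6%), 0.0579% in striatal sample NT 2 (others 26.7% to 30.0%), 98.1% in cortical sample R6/2 2 (others 28.0% to 28.4%) and 98.4% in striatal sample R6/2 2 (others 20.6% to 29.4%).

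The full transcript of Hsp90ab1 held 2.51% of its reads in cortical sample NT 1, against 6.82% to 7.31% in the other 3. The leading truncated isoform of Hsp90aa1 held 51.5% of its reads in striatal sample R6/2 1, against 39.9% to 41.6% in the other 3. Dnajb1 had 24.2 CPM in striatal sample NT 4, against 53.6 to 55.4 in the other 3. That sample had 5 reads of Dnajb1.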

How the results depend on the processing

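Of 1032 fold changes of members recomputed under alternatives, 931 kept their direction and side of the threshold, 55 changed sign without being called, 15 passed the threshold and 27 lost it, and 4 called ones reversed. These 4 are the regional fold changes without ISM isoforms, 0.87 for Hsp90aa1 in NT and 0.78 in R6/2 mice, 0.92 for Hsp90ab1 and 1.45 for Hsp90b1.

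In the striatum, 1 member (Hspa5) differed between genotypes with DESeq2 and 1 without a filter on low counts. Between regions in NT mice, 0 members were called with first runs only, 0 in samples of 1 run, 2 with near-copies summed and 2 without the samples numbered R6/2 2. In R6/2 mice, 1 was called without a filter and 1 with first runs only, against 3. The call without a filter was Hspa8 (-0.72, edgeR adjusted p = 0.00117). Hsp90aa1, Hsp90ab1 and Hsp90b1 then had adjusted p of 0.0587, 0.148 and 0.181. In NT mice, Hspa8 (-0.77, adjusted p = 0.00243) likewise took the place of Hsp90aa1 (adjusted p = 0.192) without a filter. For isoform usage, 1 was called with ISM isoforms added (cortex) and 1 by the F test (striatum). With both, the cortical call was lost (0) and the striatum had 1. Leaving out each sample gave 0 to 1 members for the cortical genotype comparison, 0 to 0 for the striatal one, the interaction and isoform usage in either region, 0 to 1 for regions in NT mice and 1 to 3 in R6/2 mice. The samples behind these ranges are named with the regional results. In NT mice the 1 call without cortical NT 1 was Hspb1 (1.32).

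The number of calls over all genes moved by more than 1.5 times in some fits. In the cortex 198 became 95 without ISM isoforms, 300 without NT 1 and 123, 116, 95 and 129 without R6/2 1 to 4. In the striatum 332 became 637 without a filter, 182 with the replicate block, 39 without a term for runs, 20 with first runs only, 53 in samples of 1 run, 34 in those of 2 runs, 217 and 198 without NT 2 and NT 3, and 181, 145, 188 and 184 without R6/2 1 to 4. The 3 interaction calls became 0 to 9. Between regions, 2470 (NT) and 2020 (R6/2) became 1103 and 840 without the term for runs and 937 and 718 with first runs only. For isoform usage, 11 (cortex) became 28 by the F test, 7 with known isoforms only and 1 without R6/2 2, and 20 (striatum) became 74, 7 and 5, besides 11 with ISM isoforms, 3 without the term for runs and 0 with first runs only.

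With the sample number as a replicate block, 0 members were called between genotypes in the cortex, the striatum and the interaction, 1 between regions in NT mice (Hspa8, -1.18, in place of Hsp90aa1, adjusted p = 0.0623) and 3 in R6/2 mice (Hspa8, Hsp90aa1 and Hsp90b1, with Hsp90ab1 at 0.0694). Whether cortex and striatum of a number are 1 mouse is not given, and the Gm15459 split was alike in both regions for NT 2 and R6/2 2. Summing Hspa1b into Hspa1a gave no other value, since it had 0 reads. The causes were not tested. Depth limits statements on Hspa1a, Dnajb5, Hspb1 and the 121 reads of the Hsp90b1 isoforms.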
